A study of Homo sapiens with 36 samples.

Results

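MIR143 and MIR145 are neighbouring microRNA genes, and the 4 mature miRNAs cut from their hairpins (hsa-miR-143-3p, hsa-miR-143-5p, hsa-miR-145-5p and hsa-miR-145-3p, written below without the species prefix) were followed here through the senescence of human fibroblasts. They were chosen by name, as every mature arm of the pair, and are 4 of the 1508 mature miRNAs listed in the count table. In this study of WI-38 cells, an established strain of human lung fibroblasts, small RNA libraries were made from 18 conditions with 2 replicates each, 36 libraries in all. Proliferating untreated cells were the control (Ctrl). For plasma membrane damage-dependent senescence (PMD-Sen), cells were kept for a day in medium with the detergent sodium dodecyl sulphate (SDS). For DNA damage response-dependent senescence (DDR-Sen), they were kept for a day in doxorubicin (DXR), which breaks DNA. Both series were sampled at 8 time points, from D0, when the day of treatment ended, through D1, D2, D3 and D4 to D6, D8 and lastly D16, where the number is the day since then, and cells passaged to exhaustion gave replicative senescence (RS). The replicates are labelled as biological, without a word on how they were made. All groups descend from 1 cell strain. The p-values thus measure the spread between these samples, technical spread included, and not that between donors. The question asked of these miRNAs was how their levels moved along each route to senescence and whether the routes differed.

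The MIR143 and MIR145 hairpins lie close together and are transcribed from a shared long non-coding host gene, CARMN. In vessel walls they are known as the most characteristic miRNAs of contractile smooth muscle, where serum response factor and its partner myocardin drive their transcription and where they restrain the proliferative state. Fibroblasts carry them at lower levels and raise them when they turn into contractile myofibroblasts. An miRNA finds its messenger targets mainly through its seed, bases 2 to 8, and of the arms of a hairpin 1 is usually retained by Argonaute while the other, the passenger, is degraded.

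The 4 mature sequences are shown because they identify the molecules that the counts below are listed under and because none shares a seed with another, so that each member addresses its own set of targets. They were taken from RefSeq (GRCh38.p14), in which all 4 were found, and the capitals mark the seed.
miR-143-3p: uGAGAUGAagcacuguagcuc
miR-143-5p: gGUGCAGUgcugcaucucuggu
miR-145-5p: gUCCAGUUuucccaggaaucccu
miR-145-3p: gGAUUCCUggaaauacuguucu
Their lengths were 21, 22, 23 and 22 bases in the same order. In RefSeq, miR-4770 and miR-6088 carry the seed of miR-143-3p, and neither is listed in the count table.

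On GRCh38.p14 the MIR143 hairpin spans chr5:149428918-149429023 and the MIR145 hairpin chr5:149430646-149430733, both on the plus strand and 1622 bases apart. In the GENCODE v44 annotation both lie within CARMN, at chr5:149406689-149432835. Of its 25 annotated transcripts 3 span the hairpins. In all 3, MIR143 sits in an exon, which is exon 4 of 5 in the canonical transcript, and MIR145 sits in an intron. CARMN itself was not measured by small RNA sequencing and no value for it is given here.

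**Figure D1:**
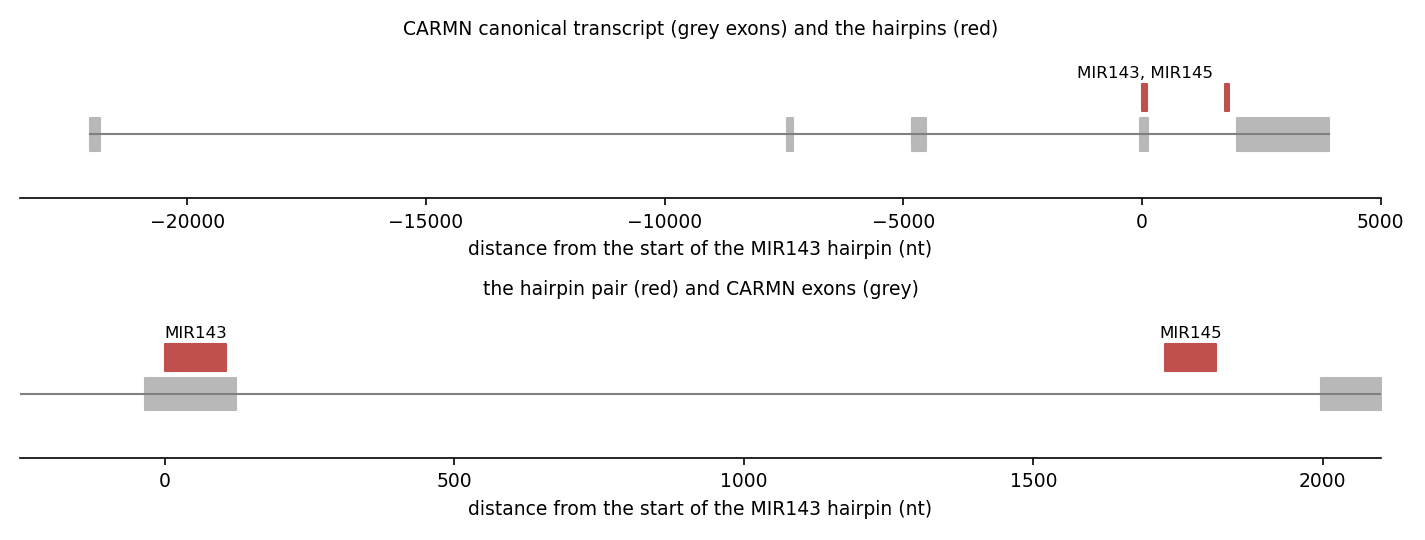
Position of the hairpins in the host gene. The horizontal axes give the distance in nucleotides from the start of the MIR143 hairpin along the plus strand. Grey boxes are exons of the canonical CARMN transcript, the grey line its introns and red boxes the hairpins. The upper row shows the whole transcript and the lower row the hairpin pair, with MIR143 over an exon and MIR145 in an intron 1622 bases downstream.

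Library totals ranged from 81668 to 1933435 miRNA reads, with a median of 376989. Levels are given in CPM, the usual share of a library's reads after TMM scaling, and compare a miRNA with itself across libraries, because ligation bias between sequences is not corrected in them. In bulk samples, fewer cells of a type and less RNA per cell cannot be told apart. Of 7 fibroblast-enriched miRNAs, 6 had a median above 100 CPM, against 0 of 7 epithelial markers, although all 7 of each set were listed. The fibroblast set summed to 60027 to 126691 CPM in the 36 libraries, of which miR-21-5p alone had 37240 to 103008 CPM. Blood markers summed to at most 12.6 CPM, epithelial markers to at most 163 CPM and striated muscle markers to at most 46.6 CPM. The endothelial pair miR-126-3p and miR-126-5p summed to 42.8 to 55.8 CPM in Ctrl, 18.4 to 141 CPM in PMD-Sen, 70.4 to 155 CPM in DDR-Sen and 119 to 199 CPM in RS. The endothelial sum was thus higher in RS and in every DDR-Sen library than in Ctrl. On the log2 scale miR-126-3p was above Ctrl by 1.56 (SE 0.410) in PMD-Sen D16, 1.64 (SE 0.416) in DDR-Sen D16 and 1.85 (SE 0.412) in RS. Whether endothelial miRNAs had a part in the changes of the cluster was not tested.

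miR-143-3p was the most abundant member. It took 0.326% to 1.78% of a library and ranked between 16th and 45th among the listed miRNAs. miR-145-5p took 0.0464% to 0.157% and ranked 66th to 112th. The passenger arm miR-145-3p, with 5 to 292 counts a library, ranked 144th to 345th. The other passenger, miR-143-5p, was close to the limit of detection, with 0 to 46 counts, no count in 6 libraries and at most 3 counts in 16. It entered the test although its level passed the filter value of 26.5 CPM, the TMM scaling aside, in only 2 libraries, and no direction is drawn for it.

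In Ctrl, miR-143-3p stood at 12816 and 13598 CPM in the 2 replicates. In PMD-Sen it was measured at 7378 and 14090 CPM on D0, at 7604 and 4920 CPM on D1, at 8021 and 5385 CPM on D2 and at 7247 and 8423 CPM on D3. From D4 onward it was measured at 6650 and 9789 CPM on D4, at 8353 and 5549 CPM on D6, at 9943 and 6257 CPM on D8 and at 18681 and 9263 CPM on D16. All 12 PMD-Sen libraries of D1 to D8 lay below both Ctrl libraries, while on D0 and D16 the replicates lay on either side of Ctrl. In DDR-Sen it was measured at 15330 and 12833 CPM on D0, at 15519 and 10086 CPM on D1, at 12297 and 9343 CPM on D2 and at 8741 and 7301 CPM on D3. It was then measured at 6247 and 5420 CPM on D4, at 5812 and 4746 CPM on D6, at 5682 and 5090 CPM on D8 and at 6032 and 6999 CPM on D16. The DDR-Sen libraries overlapped Ctrl on D0 and D1, and all 8 of D4 to D16 lay below both Ctrl libraries. The RS replicates stood far apart from each other, at 3216 and 10135 CPM from 1350 and 6305 counts.

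miR-145-5p, the guide arm of the second hairpin, was measured at 1386 and 1339 CPM in Ctrl. In PMD-Sen it was measured at 1450 and 1135 CPM on D0, at 958 and 1211 CPM on D1, at 1108 and 1427 CPM on D2 and at 984 and 956 CPM on D3. It was then measured at 913 and 605 CPM on D4, at 936 and 776 CPM on D6, at 609 and 776 CPM on D8 and at 1303 and 932 CPM on D16. Of the 16 PMD-Sen libraries 14 lay below both Ctrl libraries, the other 2 being replicate 1 of D0 and replicate 2 of D2. In DDR-Sen it was measured at 1217 and 1405 CPM on D0, at 1002 and 1127 CPM on D1, at 1044 and 865 CPM on D2 and at 950 and 1006 CPM on D3. It was then measured at 770 and 870 CPM on D4, at 609 and 738 CPM on D6, at 591 and 534 CPM on D8 and at 642 and 676 CPM on D16. Here 15 of 16 libraries lay below Ctrl, and the higher replicate was at most 1.21 times the lower on any day, against at most 1.51 times in PMD-Sen. The RS libraries had 457 and 723 CPM, both below Ctrl.

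The order of the 18 conditions by mean level was loose. For miR-143-3p it ran from DDR-Sen D0 at 14082 ± 1765 CPM (SD, n = 2) down to DDR-Sen D6 at 5279 ± 754 CPM (SD, n = 2), with PMD-Sen D16 next and Ctrl after it, and with RS among the lower ones. For miR-145-5p it ran from Ctrl at 1363 ± 32.8 CPM (SD, n = 2) down to DDR-Sen D8 at 562 ± 40.3 CPM (SD, n = 2), with RS next to last. The highest mean was 2.67 times the lowest for miR-143-3p and 2.42 times for miR-145-5p. In both orders all 17 neighbouring conditions had overlapping replicates.

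**Figure D2:**
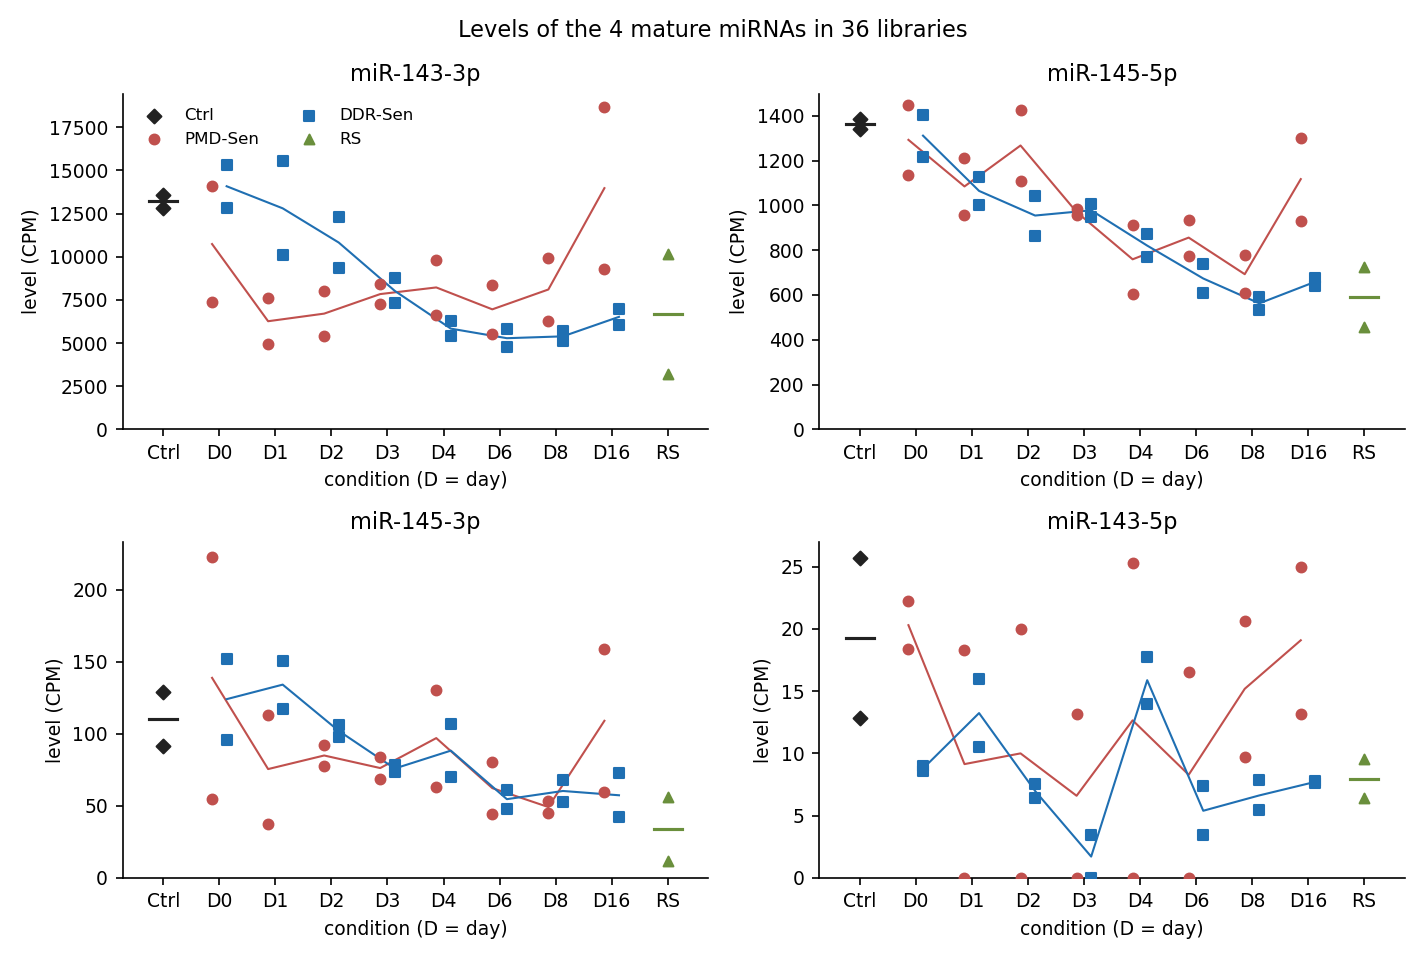
Level of each mature arm in the 36 libraries. The vertical axes give CPM from 0 and the horizontal axes the condition, with Ctrl at the left, the time points in the middle and RS at the right. Each point is a library, lines join the means of PMD-Sen or DDR-Sen and short bars are the means of Ctrl and RS. In DDR-Sen the mean of miR-143-3p is lowest on D6 and that of miR-145-5p on D8, whereas in PMD-Sen both have a higher mean on D16 than on D8 and the D16 replicates stand apart (18681 and 9263 CPM for miR-143-3p).

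Each time point was next compared with Ctrl. All of these comparisons share the same 2 Ctrl libraries. A miRNA is called changed here by the study's own thresholds, a log2 fold change beyond 1 in either direction with p below 0.05 before adjustment, and p adjusted by Benjamini-Hochberg over the 360 tested miRNAs is given beside it. All tests across miRNAs are edgeR quasi-likelihood tests.

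In DDR-Sen, miR-143-3p was lower by a factor of 2 or more from D4 to D16 and miR-145-5p from D6 to D16. These days mark the fold threshold and not the onset. miR-145-5p was already at -0.51 (SE 0.234) on D2 and -0.73 (SE 0.236) on D4. miR-143-3p was at -0.29 (SE 0.370) on D2 and -0.72 (SE 0.372) on D3. Over the 8 time points 7 of 32 tests of the 4 members were called, all 7 lower, where 9.83% of all tests were called and 5.9% were called lower. The 7 calls belonged to miR-143-3p on D4, D6, D8 and D16 and to miR-145-5p on D6, D8 and D16, days on which 9.17%, 11.7%, 12.8% and 21.4% of all miRNAs were called. On the log2 scale miR-143-3p fell by 1.18 (SE 0.375) on D4, by 1.32 (SE 0.376) on D6, by 1.29 (SE 0.376) on D8 and by 1.02 (SE 0.373) on D16. By edgeR, the adjusted p was 0.0521 on D4, 0.0203 on D6, 0.0203 on D8 and 0.0467 on D16. On D16 the log2 fold change was close to the threshold, and leaving out Ctrl replicate 2 (-0.99) or DDR-Sen D16 replicate 1 (-0.91) ended that call. miR-145-5p fell by 1.01 (SE 0.236) on D6, by 1.27 (SE 0.238) on D8 and by 1.05 (SE 0.236) on D16, with edgeR adjusted p of 0.00632, 0.000437 and 0.00195. Without DDR-Sen D6 replicate 1 the D6 value of miR-145-5p was -0.89, under the fold threshold. When any 1 of the 4 libraries of a comparison was left out, the adjusted p of miR-145-5p stayed below 0.05 on D8 (highest 0.0146) and D16 (highest 0.0244), and that of miR-143-3p was above 0.05 on all 4 days (0.113 to 0.284). On D0 the log2 fold changes were 0.09 (SE 0.369) for miR-143-3p and -0.06 (SE 0.232) for miR-145-5p.

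In PMD-Sen, the values of miR-143-3p and miR-145-5p were negative on every day from D1 to D8, and neither differed detectably from Ctrl on D16. Only D1 passed the call thresholds for miR-143-3p, and only D4 and D8 passed the adjusted p for miR-145-5p. These days follow from the thresholds and do not set those days apart from the others. Here 1 of 32 member tests was called, where 8.44% of all tests were, so that the share of calls among the members was not above that background. These 32 include the tests of miR-143-5p, near the limit of detection, and of miR-145-3p, whose values were less precise. The call was miR-143-3p on D1, when 7.22% of all miRNAs were called. It fell by 1.07 (SE 0.375, edgeR adjusted p = 0.149), and without PMD-Sen D1 replicate 2 it was -0.82 and not called. The values of miR-143-3p on the other days between D2 and D8 lay from -0.98 to -0.69, none past both thresholds. For miR-145-5p the log2 fold change was -0.83 (SE 0.235, edgeR adjusted p = 0.0382) on D4 and -0.98 (SE 0.235, edgeR adjusted p = 0.00987) on D8, past the adjusted p but short of the fold threshold. The adjusted p passed 0.05 on each of these days in 1 of 4 fits that left out a library, and was lost without either Ctrl replicate, without D4 replicate 2 and without D8 replicate 1. At an adjusted p below 0.05 with no fold threshold, 2 of 32 member tests passed in PMD-Sen and 6 of 32 in DDR-Sen, where 5.31% and 7.08% of all tests passed. On D16 in PMD-Sen the values were 0.08 (95% confidence interval -0.67 to 0.84) for miR-143-3p and -0.28 (95% confidence interval -0.75 to 0.19) for miR-145-5p. The D16 value of miR-143-3p rested on PMD-Sen D16 replicate 1 and was -0.56 without it.

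Averaging D1 to D8, a contrast added after the levels were seen, put the series side by side. For miR-143-3p the mean of D1 to D8 against Ctrl was -0.85 (SE 0.264) after SDS and -0.81 (SE 0.265) after DXR, with edgeR adjusted p of 0.0510 and 0.0417. For miR-145-5p it was -0.57 (SE 0.171) and -0.73 (SE 0.169), with edgeR adjusted p of 0.0447 and 0.00429. The share of all miRNAs past an adjusted p of 0.05 was 5.28% for PMD-Sen and 13.6% for DDR-Sen. The median of all miRNAs tested was 0.00 in both of these contrasts, which the TMM scaling holds near 0, so that the values of the members are relative to the other miRNAs. For miR-145-5p in DDR-Sen 12 of 14 fits that left out a library kept an adjusted p below 0.05, the exceptions being those without a Ctrl replicate, against 3 of 14 for miR-145-5p in PMD-Sen and 1 of 14 for miR-143-3p in DDR-Sen.

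**Figure D3:**
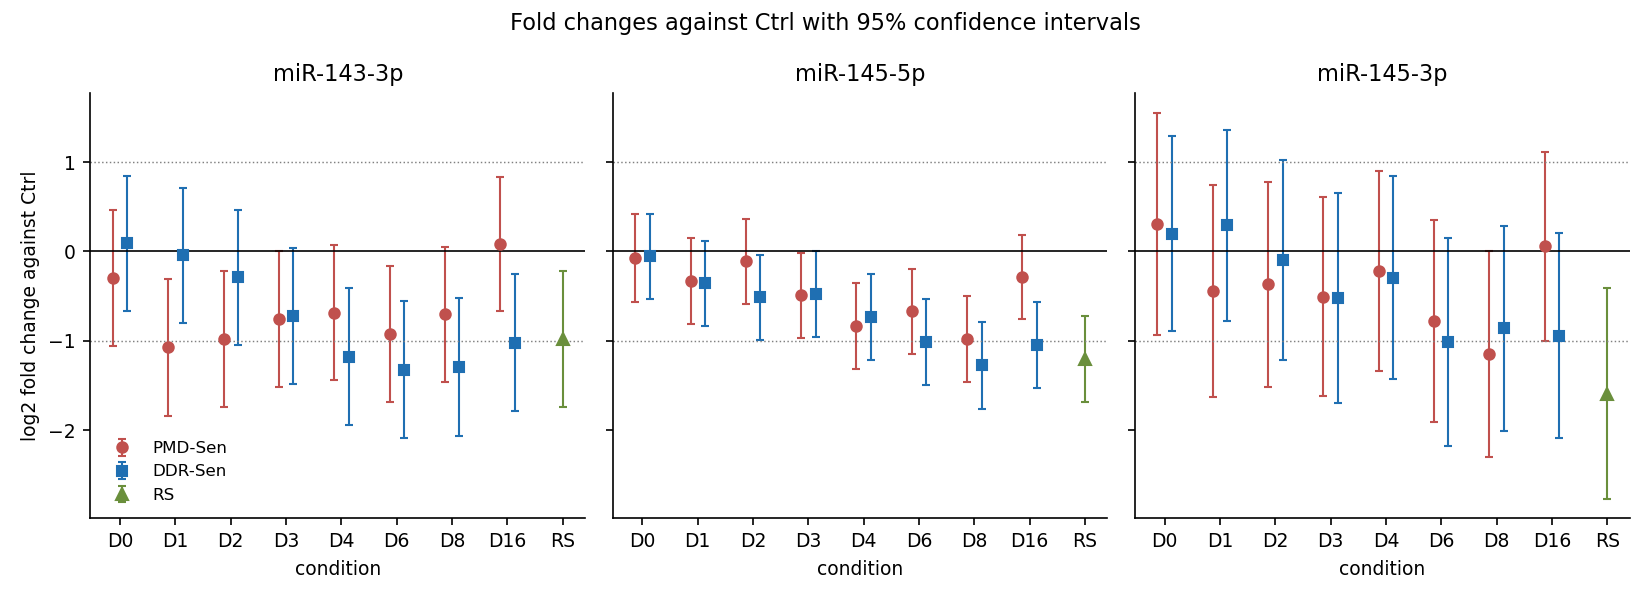
Change against Ctrl of the 3 members with enough counts. The vertical axis is the edgeR log2 fold change with its 95% confidence interval, from 2 libraries per condition against 2 Ctrl libraries, and the horizontal axis the condition. Dotted lines mark a log2 fold change of 1 in either direction. For miR-143-3p and miR-145-5p the DDR-Sen intervals of D4, D6, D8 and D16 and the RS interval lie wholly below 0. The DDR-Sen interval of miR-145-5p on D2 does so as well. In PMD-Sen the intervals lie wholly below 0 on D1, D2 and D6 for miR-143-3p. For miR-145-5p they do so on D3, D4, D6 and D8. The PMD-Sen D16 intervals of both include 0.

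In RS, miR-145-5p and miR-145-3p fell and the call of miR-143-3p depended on the processing. Of the 4 members 2 were called in RS, both lower, where 22.2% of all 360 miRNAs were called in either direction. miR-145-5p fell by 1.20 on the log2 scale (SE 0.236, edgeR adjusted p = 0.000268), which is 2.30-fold lower. miR-145-3p fell by 1.59 (SE 0.576, edgeR adjusted p = 0.0455), from 129 and 91.4 CPM in Ctrl to 11.9 and 56.3 CPM in RS, values that rest on 30, 32, 5 and 35 counts. miR-143-3p was at -0.98 (SE 0.373, edgeR adjusted p = 0.0547), just short of the fold threshold. It was past both thresholds with the DESeq2 Wald test (-1.02), DESeq2 size factors (-1.01), total counts (-1.10), a filter of a mean of at least 10 counts (-1.03) or thinning (-1.10). RS replicate 1 carried much of these values, since without it miR-145-5p was -0.80 (edgeR adjusted p = 0.0333), miR-145-3p -0.83 and miR-143-3p -0.27, and without RS replicate 2 miR-143-3p was -2.08. The call of miR-145-3p was also lost without Ctrl replicate 1. The median over all miRNAs was 0.12 in this comparison, and the fibroblast markers summed to 61343 and 124262 CPM in the RS libraries, whose part in the spread was not tested.

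The passenger arm miR-145-3p gave less precise values than its partner. In PMD-Sen its log2 fold changes against Ctrl ran from -1.15 (SE 0.565, edgeR adjusted p = 0.185) on D8 to 0.31 (SE 0.610) on D0, where its replicates had 55.1 and 223 CPM from 6 and 20 counts. In DDR-Sen it was measured at 152 and 95.9 CPM on D0 and at 72.5 and 42.1 CPM on D16. Its DDR-Sen value on D6 was -1.01 (SE 0.571) and on D16 -0.94 (SE 0.562), neither past the test.

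The course within a series was then tested as D16 against the mean of D0 and D1, which needs no Ctrl library. In DDR-Sen, 2 of the 4 members were called, both lower, where 14.4% of all miRNAs were called. miR-143-3p fell by 1.04 (SE 0.335, edgeR adjusted p = 0.0258) and miR-145-3p by 1.19 (SE 0.485, edgeR adjusted p = 0.0861). miR-145-5p was at -0.84 (SE 0.209, edgeR adjusted p = 0.00426), short of the fold threshold. Leaving out DDR-Sen D1 replicate 1 (-0.89) or D16 replicate 1 (-0.96) ended the call of miR-143-3p, and leaving out D0 replicate 1 or D16 replicate 2 ended that of miR-145-3p. In PMD-Sen none of the 4 was called by edgeR, where 21.4% of all miRNAs were. 1 of the 4, miR-143-3p, had an unadjusted p below 0.05. It was higher on D16, at 0.77 (SE 0.313, edgeR adjusted p = 0.0670), and this value was 0.10 without PMD-Sen D16 replicate 1. miR-145-5p was at -0.08 (95% confidence interval -0.49 to 0.34).

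The late changes of miR-143-3p thus had opposite signs in the 2 series, though the PMD-Sen change was not called. Their difference was tested as an interaction, chosen after the levels were seen. This contrast takes in the early days as well as D16. PMD-Sen minus DDR-Sen was -0.39 (SE 0.372) on D0, -1.03 (SE 0.374) on D1 and 1.10 (SE 0.373) on D16. The D16 against D0 and D1 change of miR-143-3p was larger in PMD-Sen than in DDR-Sen by 1.81 on the log2 scale (SE 0.458, edgeR adjusted p = 0.0306), where 3.33% of all miRNAs passed an adjusted p of 0.05. In 12 fits that each left out a library the difference ran from 1.24 to 2.30, and in 5 of them the adjusted p was below 0.05. It was lost without PMD-Sen D0 replicate 1, D1 replicate 2 or D16 replicate 1 and without DDR-Sen D0, D1 or D16 replicate 1 or D16 replicate 2. The lowest value, 1.24 with an edgeR adjusted p of 0.374, came without PMD-Sen D16 replicate 1. That library was the deepest of all, with 4.39 times the total of its replicate. With every library thinned to the smallest total the difference was 1.88. Random thinning keeps the proportions within a library, so it cannot show what set that library apart from its replicate, which was not tested. For miR-145-5p the difference was 0.76 (SE 0.286, edgeR adjusted p = 0.116) and for miR-145-3p it was 1.31 (SE 0.664, edgeR adjusted p = 0.253), both in the same direction as that of miR-143-3p and neither past the adjusted p. Against the mean of D1 to D8, D16 in PMD-Sen was higher for miR-143-3p by 0.94 (SE 0.261, edgeR adjusted p = 0.0166, where 12.8% of all miRNAs passed 0.05) and stood at 0.29 (SE 0.171, edgeR adjusted p = 0.247) for miR-145-5p, and the first was 0.29 without PMD-Sen D16 replicate 1. Its adjusted p was also above 0.05 without D1, D6 or D8 replicate 2 or D4 replicate 1, and below it in 9 of 14 such fits. In DDR-Sen the same contrast gave -0.21 (SE 0.287) and -0.32 (SE 0.184).

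The rank of the levels with day was examined in the 16 libraries of each series, with 8 trends in the family, permuting the days 100000 times. In DDR-Sen, 3 of the 4 members declined with day. Spearman's rho of miR-145-5p was -0.91 (permutation p = 1e-05, which is the smallest possible here, adjusted p = 8e-05) and Pearson's r was -0.75 (permutation p = 0.00032, adjusted p = 0.00256). For miR-143-3p rho was -0.82 (permutation p = 0.0002, adjusted p = 0.000533) and r was -0.61 (permutation p = 0.0109, adjusted p = 0.0291), and for miR-145-3p rho was -0.83 (permutation p = 0.00018, adjusted p = 0.000533) and r was -0.71 (permutation p = 0.00128, adjusted p = 0.00512). In PMD-Sen, miR-145-5p declined by rank, with rho -0.58 (permutation p = 0.0213, adjusted p = 0.0425), but r was -0.21 (permutation p = 0.432, adjusted p = 0.583). Leaving out the 2 D16 libraries, the farthest from the median day, gave r of -0.77 for miR-145-5p in PMD-Sen and -0.95 in DDR-Sen, so the weak linear relation in PMD-Sen rested on the D16 libraries. miR-143-3p in PMD-Sen had rho 0.28 (permutation p = 0.301, adjusted p = 0.401) and r 0.45 (permutation p = 0.0832, adjusted p = 0.166), and without the D16 libraries r fell to -0.07. Without D16, r was -0.89 for miR-143-3p and -0.83 for miR-145-3p in DDR-Sen. Total counts or DESeq2 size factors in place of TMM left the adjusted p of the PMD-Sen decline of miR-145-5p at 0.053 and 0.0899, and the adjusted p of rho stayed below 0.05 under both for the 3 members that declined in DDR-Sen. That of r was then 0.0673 and 0.0539 for miR-143-3p in DDR-Sen.

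PMD-Sen and DDR-Sen were compared on each day. The series differed for miR-143-3p on D1, when it was lower in PMD-Sen, and on D16, when it was higher in PMD-Sen, by the unadjusted p only. Of 32 member tests, those of miR-143-5p and miR-145-3p again included, 2 were called, where 6.22% of all tests were. The share of calls among the members was thus near the background. None passed an adjusted p of 0.05 by edgeR, where 1.6% of all tests did. On D1 the difference was -1.03 (SE 0.374, edgeR adjusted p = 0.102) and on D16 it was 1.10 (SE 0.373, edgeR adjusted p = 0.158), where 11.7% and 4.72% of all miRNAs were called. The D1 call was lost without PMD-Sen D1 replicate 2 (-0.84) or DDR-Sen D1 replicate 1 (-0.71), and the D16 call without PMD-Sen D16 replicate 1 (0.46) or DDR-Sen D16 replicate 1 (0.97). On D16, miR-145-5p was higher in PMD-Sen by 0.77 (SE 0.233, edgeR adjusted p = 0.158), short of the fold threshold. Its replicates had 1303 and 932 CPM in PMD-Sen and 642 and 676 CPM in DDR-Sen.

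A model over the 28 libraries of D1 to D16 with a term for each day gave 1 value per member for the difference between the series. It takes this difference to be the same on all days, and 346 miRNAs were tested. miR-145-5p was higher in PMD-Sen by 0.26 on the log2 scale (SE 0.0904, edgeR adjusted p = 0.0389), which is 1.19-fold. It was 1 of 3 members tested to pass, where 21.4% of all miRNAs passed. miR-143-3p differed by 0.14 (95% confidence interval -0.21 to 0.49) and miR-145-3p by 0.03 (95% confidence interval -0.36 to 0.42). The value of miR-143-3p averages days of opposite sign, from -1.03 on D1 to 1.10 on D16, and does not show that the series were alike. The value for miR-145-5p was not past the adjusted p in either replicate alone, with 0.21 from replicate 2 and 0.30 from replicate 1.

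On D16 the senescent cells were also set against RS. Of the 4 members 2 were called in PMD-Sen D16, both higher than in RS, where 14.2% of all miRNAs were called. miR-143-3p was higher by 1.07 (SE 0.373, edgeR adjusted p = 0.0632) and miR-145-3p by 1.65 (SE 0.542, edgeR adjusted p = 0.0505). miR-145-5p was higher by 0.92 (SE 0.233, edgeR adjusted p = 0.0122), below the fold threshold. Each rested on RS replicate 1, without which they were 0.32, 0.87 and 0.50. Without PMD-Sen D16 replicate 1 they were 0.41, 0.66 and 0.60. Between DDR-Sen D16 and RS none of the 4 members was called by edgeR and 0 of 4 had an unadjusted p below 0.05, where 6.39% of all miRNAs were called. The difference was -0.04 (95% confidence interval -0.79 to 0.72) for miR-143-3p and 0.15 (95% confidence interval -0.33 to 0.63) for miR-145-5p. These values lie between those of the unlike RS replicates. For miR-143-3p the difference was -0.77 without RS replicate 1 and 1.02 without RS replicate 2, and the latter was past both thresholds (edgeR adjusted p = 0.123). For miR-145-5p it was -0.27 and 0.53 in the same fits.

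Since the hairpins share a host transcript and each arm pair shares a hairpin, ratios were taken within each library, where the scaling cancels. The ratio of counts of miR-143-3p to miR-145-5p had a median of 9.16 and a range of 3.77 to 16.3 over the 36 libraries. That of miR-145-5p to miR-145-3p had a median of 11.7 and a range of 4.58 to 35.0. For MIR143 the guide to passenger ratio had a median of 544 and a range of 255 to 1590 in the 20 libraries with more than 3 counts of miR-143-5p. Where miR-143-5p was at 0, in 6 libraries, the pseudocount of 0.5 stood in for it and the ratio followed depth, so that no comparison is drawn from this ratio. Counts of different sequences differ in ligation efficiency, so these ratios are compared between libraries and not read as molar ratios.

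Neither of the other ratios differed detectably between PMD-Sen and DDR-Sen over D1 to D16, and neither moved with day past the adjusted p. On the log2 scale miR-143-3p to miR-145-5p averaged 3.06 ± 0.626 (SD, 14 libraries) in PMD-Sen and 3.20 ± 0.342 (SD, 14 libraries) in DDR-Sen. The exact permutation test within days, two-sided over 279936 arrangements, gave p = 0.487 (adjusted p = 0.713 over 3 ratios). For miR-145-5p to miR-145-3p the means were 3.66 ± 0.614 and 3.35 ± 0.357 (SD, 14 libraries each, exact permutation p = 0.138, adjusted p = 0.415). With day, among 6 trends, that of miR-143-3p to miR-145-5p in PMD-Sen had rho 0.52 (permutation p = 0.0413, adjusted p = 0.124) and r 0.48 (permutation p = 0.0568, adjusted p = 0.341).

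**Figure D4:**
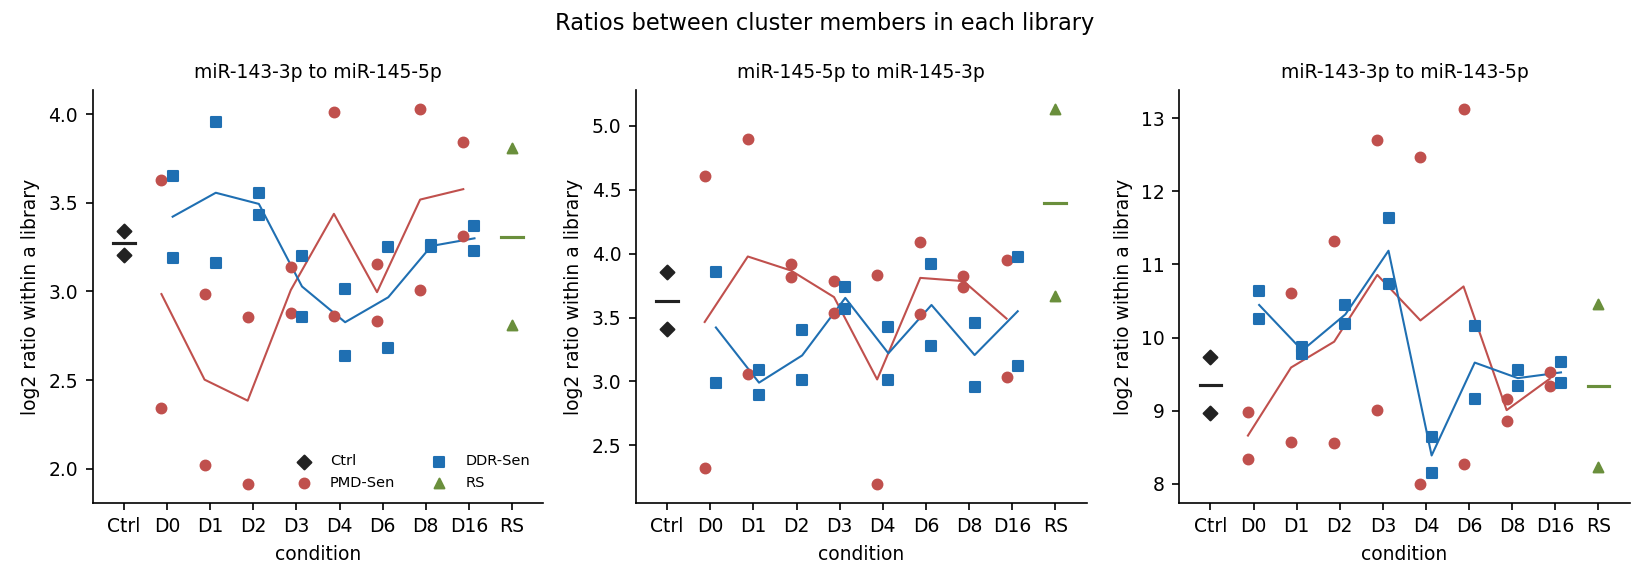
Log2 ratios between members within each library. The vertical axes give the log2 ratio of counts with a pseudocount of 0.5 and the horizontal axes the condition. Each point is a library, lines join the means of a series and short bars are the means of Ctrl and RS. PMD-Sen libraries scatter more widely than DDR-Sen libraries in the left and middle panels (SD 0.626 against 0.342 for miR-143-3p to miR-145-5p), and in the right panel the largest values of miR-143-3p to miR-143-5p come from libraries in which miR-143-5p was at 0.

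As a description, the members tracked each other unevenly across the 36 libraries, which share the day and the scaling. Pearson's r of the log2 CPM was 0.74 for miR-143-3p with miR-145-3p, 0.56 for miR-143-3p with miR-145-5p and 0.56 for the arms of MIR145. Within the 16 DDR-Sen libraries miR-143-3p and miR-145-5p had r 0.82, and within the 16 PMD-Sen libraries r -0.01. Of the 190 other miRNAs with a mean of at least 100 CPM, 14 had a higher r with miR-143-3p than miR-145-5p had.

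The miRNAs whose levels ran most like miR-143-3p were miR-199a-5p (r 0.78), miR-21-5p (r 0.77) and miR-106b-5p (r 0.76), over the same 36 libraries and 190 candidates. miR-199a-5p and miR-21-5p are abundant fibroblast miRNAs with known roles in fibrosis, and miR-106b-5p belongs to a paralogue of the miR-17-92 cluster. Those most like miR-145-5p were miR-16-5p (r 0.84), miR-17-5p (r 0.78) and miR-20a-5p (r 0.77). miR-16-5p is known to restrain cyclins, and miR-17-5p and miR-20a-5p are members of the proliferation-linked miR-17-92 cluster. Within DDR-Sen alone the r of miR-16-5p with miR-145-5p was 0.94 and within PMD-Sen 0.69.

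Other miRNAs of muscle and of fibrosis gave the setting. Of 4 miRNAs of contractile muscle, all of them also in the striated muscle set above, 3 were listed. They cannot tell whether a contractile smooth muscle state was present. miR-133a-3p and miR-206 never exceeded 3 and 2 counts, and miR-1-3p, at 0 to 38.6 CPM, was tested and not called in PMD-Sen D16, DDR-Sen D16 or RS. The guide arms of the cluster were counted in every library, at 3216 CPM or more for miR-143-3p and 457 CPM or more for miR-145-5p. Of 6 miRNAs of the proliferative smooth muscle state, all tested, 1 was called in PMD-Sen D16, 0 in DDR-Sen D16 by edgeR, where 3 had an unadjusted p below 0.05, and 2 in RS, all lower. Of all miRNAs 16.9%, 21.4% and 22.2% were called. In RS miR-222-3p, which targets the cell cycle inhibitors p27 and p57, had a log2 fold change of -1.02 (SE 0.157, edgeR adjusted p = 1.47e-05). The other calls were miR-146a-5p, a brake on inflammatory signalling, at -1.35 (SE 0.571, edgeR adjusted p = 0.0892) in PMD-Sen D16 and -1.29 (SE 0.608, edgeR adjusted p = 0.124) in RS. The median log2 fold change of these 6 was -0.31, -0.32 and -0.24 in PMD-Sen D16, DDR-Sen D16 and RS. The list did not fall as a whole, since 2, 2 and 3 of the 6 were higher there than in Ctrl. Among them, miR-26a-5p was at 0.59 (edgeR adjusted p = 0.0275) in PMD-Sen D16 and 0.54 (edgeR adjusted p = 0.0339) in DDR-Sen D16. In RS, miR-24-3p was at 0.55 (edgeR adjusted p = 0.0473). Of 7 fibrosis miRNAs, all tested, 2 were called in PMD-Sen D16, 1 higher and 1 lower, and 1, lower, in DDR-Sen D16 and in RS. The lower one was miR-155-5p, an inflammation-linked miRNA, in each comparison. Its log2 fold change was -2.01 (SE 0.261, edgeR adjusted p = 5.08e-06) in PMD-Sen D16, -3.41 (SE 0.278, edgeR adjusted p = 1.22e-10) in DDR-Sen D16 and -3.08 (SE 0.274, edgeR adjusted p = 4.94e-10) in RS. The higher one was miR-29b-3p, which targets collagen messages, at 1.43 (SE 0.554, edgeR adjusted p = 0.0700) in PMD-Sen D16. The medians of the 7 were 0.50, 0.00 and -0.21, where the medians of all miRNAs were 0.05, -0.03 and 0.12. This list did not move as a whole either, since 5, 4 and 3 of the 7 were higher there than in Ctrl. Its medians therefore give no direction for fibrosis. Of the 7 fibroblast markers 0 were called in PMD-Sen D16 by edgeR, where 2 had an unadjusted p below 0.05, and 1 was called, lower, in DDR-Sen D16 and in RS. This was miR-199b-5p, with a log2 fold change of -2.46 (SE 0.657, edgeR adjusted p = 0.00618) in DDR-Sen D16 and -3.99 (SE 0.748, edgeR adjusted p = 0.000207) in RS, against -0.05 (SE 0.547) in PMD-Sen D16. Of the 7, 3 had values above 0 in DDR-Sen D16 and in RS, namely miR-22-3p at 0.86 (edgeR adjusted p = 0.0295) and 0.53, miR-152-3p at 0.50 and 0.34, and miR-21-5p at 0.19 and 0.24. The medians of the 7 were 0.36, -0.21 and -0.31 in PMD-Sen D16, DDR-Sen D16 and RS.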

How the data were processed

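Small RNA libraries were prepared in the study from total RNA with the NEXTFLEX Small RNA-Seq kit and sequenced on a MiSeq. The authors trimmed, mapped (GRCh38, which the submitters' processing notes also name) and counted reads against miRBase with the exceRpt pipeline, and deposited estimated counts per mature miRNA, in which a read matching several miRNAs can be split between them. Of 54288 deposited values 1003 differed from a whole number by more than 1e-06; none of the 36 values of each cluster member did, and values were rounded before testing.

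Counts of the 36 libraries were fitted in edgeR 4.0.16 (R 4.3.3) with a term for each of the 18 conditions, TMM scaling and the filterByExpr filter, which left 360 of 1508 miRNAs (at least 99.8% of reads in any library). Quasi-likelihood tests were two-sided, and the biological coefficient of variation was 20.9%. SE is the absolute log2 fold change divided by the square root of F. The series model used 28 libraries and 346 miRNAs. log2 CPM used a prior count of 2. Permutation tests were run in numpy 2.4.6 and scipy 1.17.1. The edgeR steps were tested on simulated data. No deposited column was left without a sample.

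Named were the 4 members, the 3 miRNAs most correlated with miR-143-3p and with miR-145-5p, and miRNAs sharing a seed. Those of the muscle and fibrosis lists past both thresholds and an adjusted p of 0.05 were also named. Named in addition, after their values were seen, were miR-1-3p, miR-133a-3p, miR-206, miR-146a-5p, miR-24-3p, miR-26a-5p and miR-29b-3p. The markers miR-126-3p, miR-126-5p, miR-199b-5p, miR-22-3p, miR-152-3p and miR-21-5p were likewise named after their values were seen. The members and lists were chosen with earlier results of these data known. Alternatives tried were DESeq2 1.42.0, other scalings and filters, thinning, adjusted thresholds, a replicate block and leaving out libraries.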

Additional observations from a re-analysis of the deposited data

Results flagged for a closer look

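In the reported fit, the late change of miR-143-3p differed between the series by the adjusted p, in a contrast that also holds their early difference. On the log2 scale D16 stood 0.77 above the mean of D0 and D1 in PMD-Sen and at -1.04 against it in DDR-Sen, and the interaction, added after seeing the data, was 1.81 (SE 0.458, edgeR adjusted p = 0.0306). Leaving out 1 library at a time kept the adjusted p below 0.05 in 5 of 12 fits and gave 1.24 (without PMD-Sen D16 replicate 1, edgeR adjusted p = 0.374) to 2.30 (without PMD-Sen D16 replicate 2, edgeR adjusted p = 0.0240).

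The same interaction for miR-145-5p was 0.763 (SE 0.286, edgeR adjusted p = 0.116), past 0.05 before adjustment only. The other two members passed neither, with 1.31 (SE 0.664) for miR-145-3p and 0.93 (SE 1.35) for miR-143-5p.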

How the results depend on the processing

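The 7 member calls in DDR-Sen against Ctrl were 6 or 7 when any 1 library was left out. The single call in PMD-Sen against Ctrl became 0 with an adjusted p and the fold threshold, 2 with an adjusted p alone, DESeq2 size factors, total counts or the members left out of the totals, 3 with the DESeq2 Wald test, no filter, a mean of at least 10 counts or thinning, and 1 to 4 when a library was left out. The 2 calls in RS ranged from 0 to 3 when a library was left out. Of D16 against D0 and D1, the 0 calls in PMD-Sen ranged from 0 to 1 and the 2 in DDR-Sen from 1 to 2 when a library was left out, and the latter were 1 with adjusted p, total counts or thinning. The 2 calls between the series by day became 0 with adjusted p, with or without the fold threshold, 1 with total counts and 1 to 4 without a library. The 1 call over D1 to D16 became 0 with no filter, with thinning and without replicate 1 or replicate 2. The 2 calls against RS became 0 with adjusted p and the fold threshold, 1 with adjusted p alone or DESeq2 size factors, and 0 to 5 without a library. The 4 trends with day became 1 without replicate 1, and the 0 ratio trends became 1 with a pseudocount of 2. The cause of these changes was not tested, save that fewer libraries raise the error.

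Reversed in sign, none of them called in the reported fit, were miR-143-3p in PMD-Sen D16 against Ctrl (0.08, with -0.0157 by the DESeq2 Wald test, -0.0152 with its size factors, -0.0281 with total counts and -0.56 to 0.47 without a library), miR-145-5p in PMD-Sen D16 against D0 and D1 (-0.08, with 0.117 with no filter and -0.39 to 0.25 without a library) and against D1 to D8 (0.29, with -0.029 to 0.49 without a library). The DDR-Sen D16 against RS values also reversed, for miR-143-3p (-0.04) with total counts (0.0238) and within -0.77 to 1.02 without a library, past both thresholds at 1.02, and for miR-145-5p (0.15) within -0.27 to 0.53. Among uncalled trends and ratios, rho of miR-143-5p in PMD-Sen was 0.024 and, without D16, -0.127. Without replicate 1 and without replicate 2, rho in PMD-Sen was -0.33 and 0.14 for miR-145-3p, -0.14 and 0.60 for miR-143-3p to miR-143-5p and 0.14 and -0.48 for miR-145-5p to miR-145-3p, and in DDR-Sen 0.048 and -0.60 for miR-143-3p to miR-145-5p. The series difference of miR-143-3p to miR-143-5p (0.20) was 0.83 and -0.42 so, and -0.035 with a pseudocount of 2.

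Replicate numbers were not treated as pairs in the reported fit. Of 153 pairs of conditions, same-numbered deviations correlated above 0.1 in 53 (median 0.0416, range -0.458 to 0.366). A median over all pairs cannot exclude pairing within some of them. In DDR-Sen miR-143-3p was higher in replicate 1 on each sampled day from D0 to D8 and lower on D16. In PMD-Sen neither replicate was the higher throughout. With a replicate block the counts of member calls were 1, 8 and 2 in PMD-Sen, DDR-Sen and RS against Ctrl. Leaving out replicate 1 or 2 of every condition leaves no residual degrees of freedom in the fit of 18 conditions, so single libraries were left out there, the lone sample being assumed to vary like the rest. Depth limits miR-143-5p, at most 3 counts in 16 libraries, most.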
